A study of Drosophila melanogaster with 3 samples.

Results

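Binding of the chromatin protein Dek was examined at 9 neural and glial identity genes of the fly: elav, fne, Rbp9, repo, moody, gcm, pros, ase and dpn. They were chosen by name from 13968 protein-coding genes on the 7 chromosome arms. For each gene, every peak summit inside the gene or within 5 kb of it was collected. Whole embryos of pooled sex, aged from 0 to 24 h, were taken from a transgenic line in which Dek carries GFP at its C terminus, and the tagged protein was pulled down with a GFP antibody. The 3 biological replicates made up a single group, and a possible control experiment named in the labels was not analysed here. Such embryos mix all tissues and stages of that day, so the peak lists cannot say in which cells a site was bound, and they hold no expression values against which the tissue could be checked.

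In the fly, neuroblasts divide asymmetrically and leave smaller daughters that become neurons or glia. The proteins encoded by ase and dpn are basic helix-loop-helix factors of neural precursors, and Pros is a homeodomain protein handed to the daughter cell, where it ends self-renewal. The products of elav, fne and Rbp9 form a family of RNA-binding proteins that control splicing and 3′ end choice in neurons, and Elav is the standard marker of differentiated neurons. Gcm directs precursors towards the glial fate, Repo is a homeodomain factor of nearly all lateral glia, and Moody is a receptor of the glia that seal the blood-brain barrier.

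The lists of replicates 1, 2 and 3, and that from all 3 pooled, were each 30000 peaks long, so their length is no count of binding sites, and the depth behind them is unknown. The reproducible list, which the authors made with an irreproducible discovery rate (IDR) threshold, held 4736 peaks and equalled the 4736 strongest pooled peaks. Signal is the authors' deposited value per peak, without a stated unit, and it is compared between lists only by place, where 1 is the strongest. A replicate peak is called strong here when its place is 4736 or better. The weakest strong peak had a deposited −log10 q of 1.73 in replicate 1, 3.39 in replicate 2 and 3.99 in replicate 3, so the same place stood for weaker evidence in replicate 1.

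Dek binding was found at the gene's own start for elav and moody, more weakly for fne, and for none of the other 6 genes in the IDR list. The 9 windows, 247 kb together, held 10 IDR summits. Of the 9 genes, 3 had an IDR summit within 500 bp of one of their own transcription start sites (TSSs), against 22.8% of all protein-coding genes. Only elav and fne had one inside the gene, against 11.6% of all protein-coding genes. The shares of 22.8% and 11.6% were lowest for genes with short windows, as given below. With 5 kb on each side, 7 of the 9 genes had an IDR summit, against 50.4% of all protein-coding genes. In 4 of these 7, Rbp9, repo, gcm and pros, the only IDR summit lay at or in a neighbouring gene, and ase and dpn had none. Among all genes with an IDR summit in the window, 54.8% had none within 500 bp of an own TSS. No test was run on these counts, since the 9 genes were chosen with earlier results known, and a count of 9 is small.

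**Figure D1:**
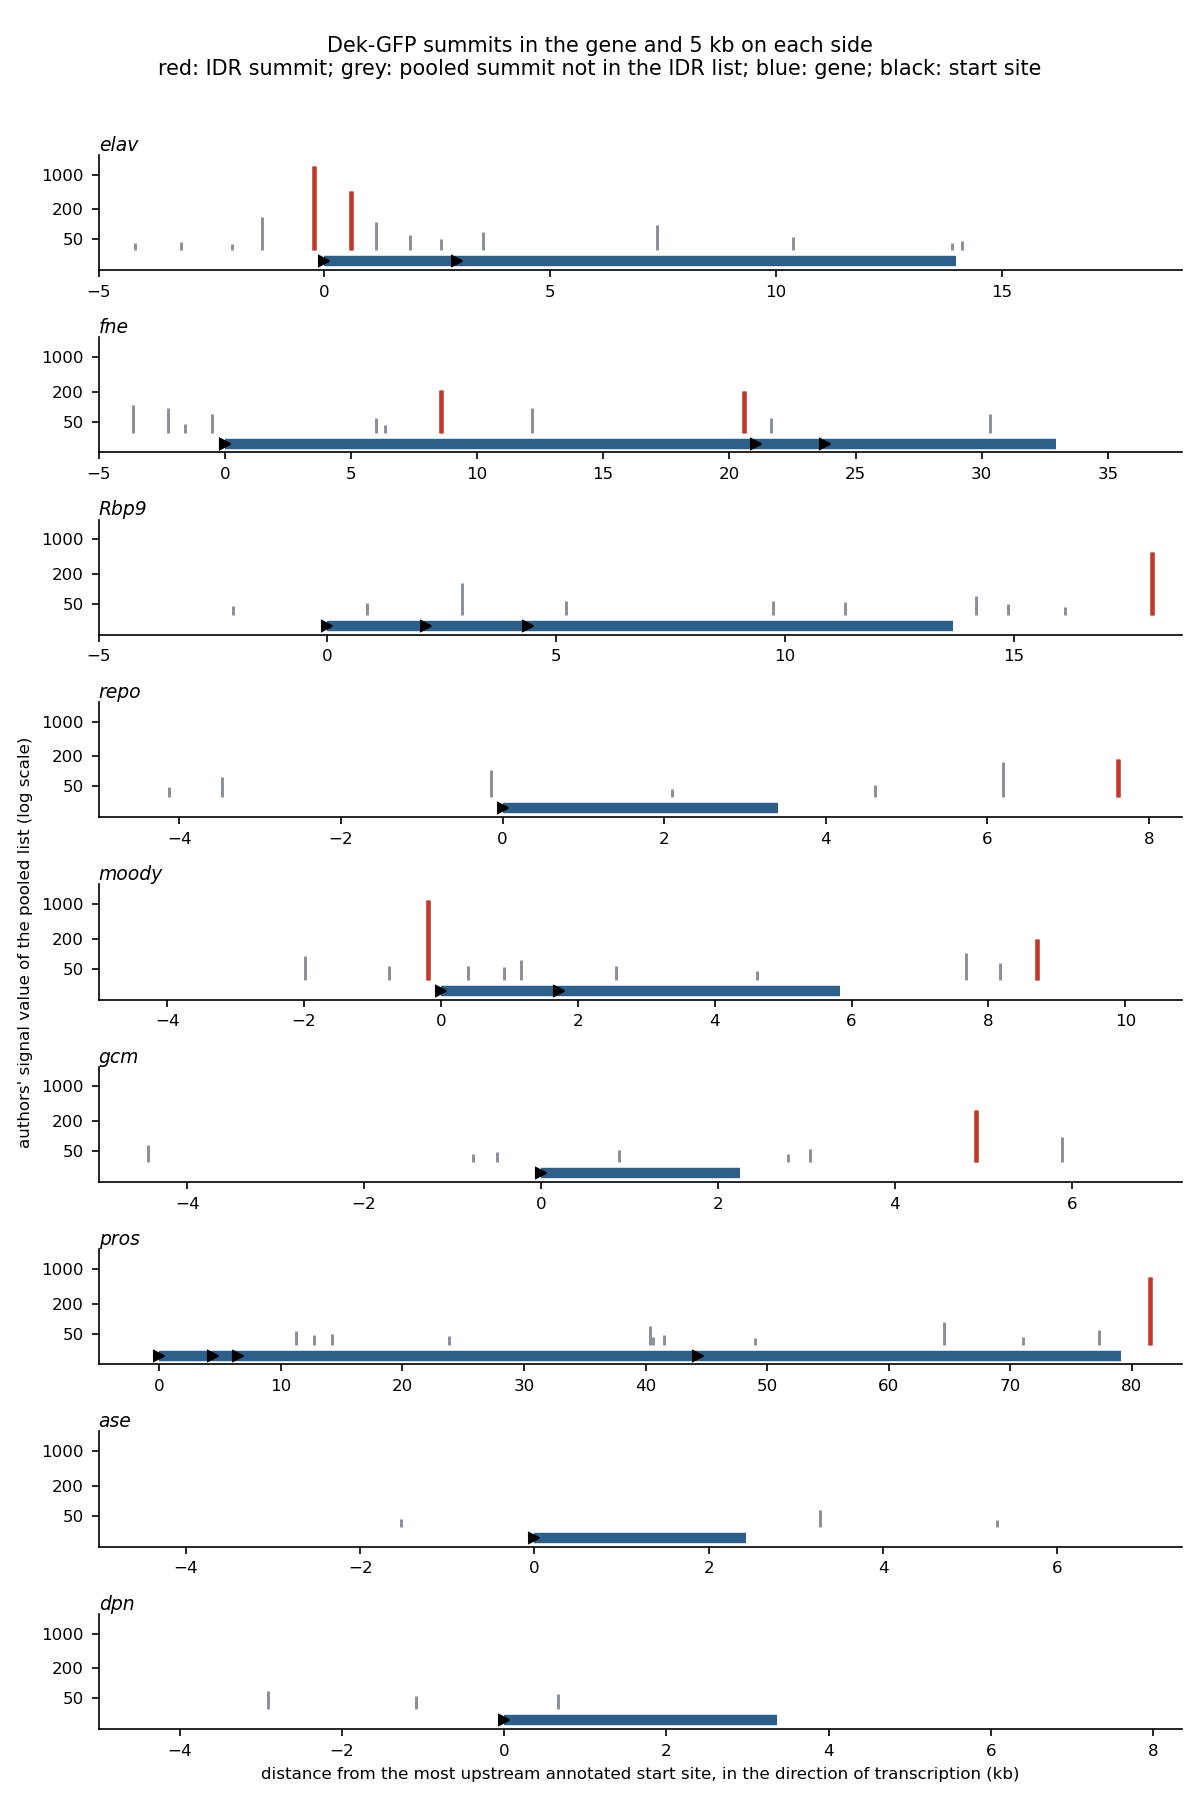
Signal of pooled summits (vertical lines, log axis, authors' value without unit) along each gene and 5 kb on each side, by distance in kb from the most upstream start site. IDR summits are red, other pooled summits grey, genes blue bars and start sites black arrowheads. The tallest lines stand beside the first start of elav (1483) and of moody (1207), while the red lines of Rbp9, repo, gcm and pros lie beyond the end of the gene.

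The strongest of the 10 summits was at elav (FBgn0260400, X 509235 to 523226, minus strand). It lay at X 523460, 234 bp upstream of the first TSS, which elav shares with the non-coding gene lncRNA:enrr. Its pooled signal was 1483, place 92 of the IDR list. The signal was 463 in replicate 1, 570 in replicate 2 and 449 in replicate 3. These were places 119, 83 and 87, so every replicate had this peak near the top of its list. Among the 3185 protein-coding genes with an IDR summit at an own TSS, elav was in place 78 by its strongest such summit. The other elav summit, at X 522649, lay 577 bp downstream of the same TSS, in an intron and 337 bp from the first exon. Its pooled signal was 476, place 912, and in replicates 1, 2 and 3 it was 109, 145 and 215, which are places 1948, 1467 and 385. The places were less alike than at the upstream summit, with replicate 3 the highest, but the peak was strong in all 3. The summits stood 811 bp apart, on either side of the first exon. Both also lie inside arg, the arginase gene, which runs across elav on the opposite strand.

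The sequences at both elav summits are shown because the upstream one is the strongest of the 10, and because they flank 1 exon and differ in base composition. Each runs 100 bp to either side of the summit, on the plus strand of dm6. Capitals mark GAGAG or its reverse complement CTCTC, the core of the site bound by the GAGA factor. The upstream stretch is chrX:523360-523560 and the downstream one chrX:522549-522749.
elav upstream: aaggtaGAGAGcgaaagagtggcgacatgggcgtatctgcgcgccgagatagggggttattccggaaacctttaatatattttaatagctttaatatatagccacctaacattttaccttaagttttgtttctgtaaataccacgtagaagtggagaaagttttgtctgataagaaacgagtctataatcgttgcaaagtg
elav downstream: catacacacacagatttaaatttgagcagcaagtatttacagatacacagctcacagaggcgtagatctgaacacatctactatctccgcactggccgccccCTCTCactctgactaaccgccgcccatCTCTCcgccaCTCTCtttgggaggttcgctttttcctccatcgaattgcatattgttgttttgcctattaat
The upstream stretch had a GC content of 38.8% and 1 GAGAG match near its left end. The downstream stretch had a GC content of 46.8% and 3 CTCTC matches, all to the right of the summit. Over all 4736 IDR summits the mean GC content was 34.7%.

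The second TSS of elav, at X 520285, had no IDR summit. Within 500 bp of it the pooled list had a summit of signal 50.3 (place 22275). Replicate 1 had none there. Replicate 2 had one of 43.0 in place 9924, 389 bp downstream of the TSS, and replicate 3 one of 64.0 in place 3500, 238 bp upstream. These were separate peaks on either side of the TSS, and the one of replicate 3 alone was strong. Beyond the IDR list, the strongest pooled summit of the elav window lay 1378 bp upstream of the first TSS, with a signal of 141 in place 5774, and places 11112, 7550 and 3034 in replicates 1, 2 and 3. The elav window held 14 pooled summits, the most of any of the 9 genes. Per 10 kb of window it had 5.84, below moody with 6.95 and gcm with 6.53.

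Peaks at fne (FBgn0086675, X 12917477 to 12950417, plus strand) were weaker and less regular. This gene, found in neurons, had 2 IDR summits inside it. The one at X 12938043 lay 474 bp upstream of the third of its 4 TSSs, just within the limit of 500 bp, whereas the downstream elav summit at 577 bp lay just beyond it. Its pooled signal was 209, place 3428, and 20.5% of the genes with an IDR summit at an own TSS had a weaker one. In replicates 1, 2 and 3 its signal was 50.7, 72.3 and 81.2, in places 5480, 4749 and 2336. It was strong in replicate 3 alone and missed the limit by little in replicate 2, where the covering peak had its own summit more than 500 bp from the TSS. The other, at X 12926053, lay deep in an intron, 8569 bp from the nearest own TSS, with a pooled signal of 216 in place 3250. In replicates 1, 2 and 3 it had places 8299, 2385 and 3984, so it was strong in replicates 2 and 3. The first 2 TSSs of fne, 7 bp apart, had no pooled summit within 500 bp, and neither had the fourth.

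The fne sequence is given because it is the most AT-rich of the 10 and lies beside a transposon. An HMS-Beagle copy of 7057 bp in the reference genome ends 354 bp from the summit, and whether the embryos of this line carry it was not tested. The stretch is chrX:12937943-12938143 on the plus strand of dm6, with capitals for a run of at least 8 A or T bases of 1 kind.
fne: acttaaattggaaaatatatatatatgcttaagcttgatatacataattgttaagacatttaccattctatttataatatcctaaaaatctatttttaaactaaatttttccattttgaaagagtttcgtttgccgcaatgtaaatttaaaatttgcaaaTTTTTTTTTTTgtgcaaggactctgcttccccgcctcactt
Its GC content was 25.9%, against 45.8% as the mean of both positions 500 bp away. These had 51.2% to the left, inside the HMS-Beagle copy, and 40.3% to the right.

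At Rbp9 (FBgn0010263, 2L 2954762 to 2968434, plus strand), the third gene of the family, none of 3 TSSs had a pooled summit within 500 bp. Within 500 bp of them only single weak replicate summits were listed, in place 17222 of replicate 3 and place 27024 of replicate 2. The strongest summit inside the gene lay in an intron, 784 bp downstream of the second TSS, with a pooled signal of 131 in place 6311. It was below the IDR list, and in replicates 1, 2 and 3 it had signals of 44.8, 53.5 and 45.6 in places 6479, 7427 and 6189. These places were close to each other, all outside the strong peaks. The only IDR summit in the window, at 2L 2972768, lay 4334 bp beyond the end of Rbp9. It stood 123 bp upstream of gammaTub23C, which encodes a gamma-tubulin, and 260 bp upstream of Rrp1, a DNA repair nuclease gene on the other strand. Its signal was 558, with places 350, 852 and 1855 in replicates 1, 2 and 3. The family thus ran from a top peak at the first TSS of elav to a weak one at an internal TSS of fne and none at the TSSs of Rbp9 in the IDR list.

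Among the glial genes, moody (FBgn0025631, X 2044292 to 2050120, minus strand) stood apart. Its summit at X 2050303 lay 183 bp upstream of the first TSS, with a pooled signal of 1207 in place 151. In replicates 1, 2 and 3 its signal was 288, 423 and 525, in places 352, 186 and 59. All 3 replicates had it among the strong peaks, highest in replicate 3. Of the genes with an IDR summit at an own TSS, 95.5% had a weaker one, and for elav the figure was 97.6%. The second TSS of moody, from which 4 of its 6 transcripts start, had no summit within 500 bp in any list. Just beyond that limit, a pooled summit of 74.0 in place 13131 lay 552 bp upstream of it. Weak summits of replicates 1 and 3 lay 505 bp and 556 bp upstream, in places 13799 and 10818. The gene lies within CG4313, a gene on the other strand, so this summit is also inside CG4313. A second IDR summit in the window, at X 2041411, lay inside usp, which encodes the partner of the ecdysone receptor, and inside Actn, 99 bp upstream of an internal TSS of usp and 2881 bp from moody. It was weaker, at a signal of 202. Its places were 4693, 3264 and 10533 in replicates 1, 2 and 3, outside the strong peaks in replicate 3.

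The moody stretch is printed because it is the least typical in composition. It is chrX:2050203-2050403 on the plus strand of dm6, with GAGAG or CTCTC in capitals.
moody: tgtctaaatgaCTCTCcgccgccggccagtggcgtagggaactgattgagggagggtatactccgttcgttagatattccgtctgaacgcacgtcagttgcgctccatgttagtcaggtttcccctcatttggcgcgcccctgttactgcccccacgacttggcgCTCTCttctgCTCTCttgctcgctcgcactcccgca
Its GC content was 57.7%, above 99.5% of all IDR summits, and it was higher than the 44.3% at 500 bp away. It held 3 CTCTC matches, 1 to the left of the summit and the others to the right.

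The remaining glial genes, repo and gcm, had no IDR summit of their own. For repo (FBgn0011701, 3R 18236192 to 18239602, plus strand), a pooled summit 141 bp upstream of its single TSS had a signal of 106 in place 8161. In replicates 1, 2 and 3 the peak holding that position had signals of 21.8, 45.8 and 36.5, in places 22492, 9060 and 8956. Every replicate listed it and none among the strong peaks. The IDR summit in the window, at 3R 18243811, lay 4209 bp beyond repo, in an intron of 14-3-3epsilon, which encodes a phosphoprotein-binding adaptor, 1124 bp from its TSS. Its signal was 181, place 4184, and it was strong in replicate 3 alone, with places 5255, 6719 and 2713. For gcm (FBgn0014179, 2L 9579498 to 9581745, minus strand), the pooled list had a summit 496 bp upstream of the TSS with a signal of 48.5 in place 23407. Replicates 1 and 2 had none within 500 bp, and replicate 3 had one in place 13911. The gcm window's IDR summit, at 2L 9576830, lay 2668 bp beyond the gene and 61 bp upstream of Mtpalpha, a fatty acid oxidation gene of mitochondria. Its signal was 340, with places 3523, 1536 and 1072 in replicates 1, 2 and 3.

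**Figure D2:**
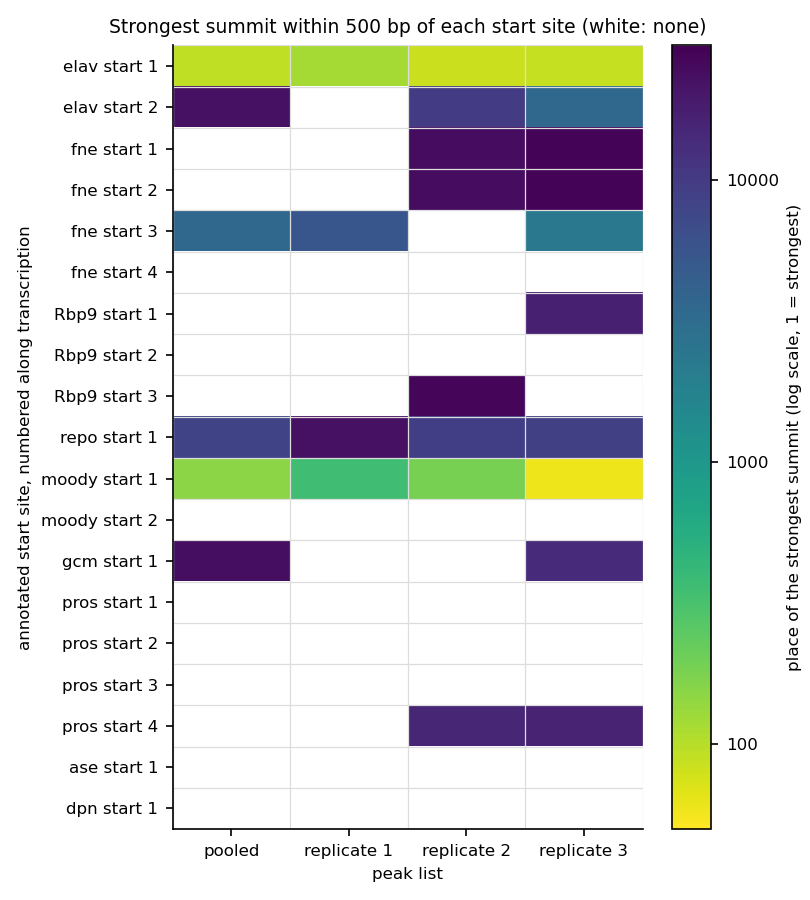
Place of the strongest summit within 500 bp of each of the 19 annotated start sites of the 9 genes, in the pooled list and in each replicate list (colour, log scale, 1 is the strongest). White marks a start site without a summit in that list. The first starts of elav and moody are in place 352 or better in every list, and most other cells are white or weak.

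The precursor genes had no binding at their starts in the IDR list. The gene pros (FBgn0004595, 3R 11328480 to 11407627, plus strand) is the longest of the 9, at 79.1 kb. None of its 4 TSSs had a pooled summit within 500 bp. The fourth had replicate summits 24 bp and 116 bp downstream, in place 15046 of replicate 2 and place 15860 of replicate 3. The strongest pooled summit inside pros had a signal of 87.1, in place 10555, and lay in the 3′ UTR. The window's IDR summit, at 3R 11409958, was 2331 bp beyond the gene, between mgr, a prefoldin subunit gene, and Irbp, which encodes a Ku protein of DNA end joining. It lay 83 bp and 89 bp upstream of their TSSs. Its signal was 693, place 447, with signals of 245, 265 and 182 in places 514, 445 and 525 of replicates 1, 2 and 3. It was strong in all 3 replicates, at places close to each other.

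The sequences below set the AT-rich summit beyond pros beside the summit beyond repo, where the GC content was highest among the summits at neighbours. Each runs 20 bp to either side of the summit, at chr3R:11409938-11409978 and chr3R:18243791-18243831, on the plus strand of dm6, with overlapping CTCTC matches in capitals in the one beyond repo.
beyond pros: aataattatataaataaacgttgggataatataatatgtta
beyond repo: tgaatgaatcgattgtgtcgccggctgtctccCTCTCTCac
Within 100 bp the GC content was 26.9% beyond pros and 48.8% beyond repo. As the mean of both positions 500 bp away it was 57.5% and 44.5%. The summit beyond pros was poorer in GC than either side, with 57.7% to the left and 57.2% to the right. The summit beyond repo was richer than the mean of its sides. It was richer than the left side, at 39.3%, but slightly poorer than the right side, at 49.8%.

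**Figure D3:**
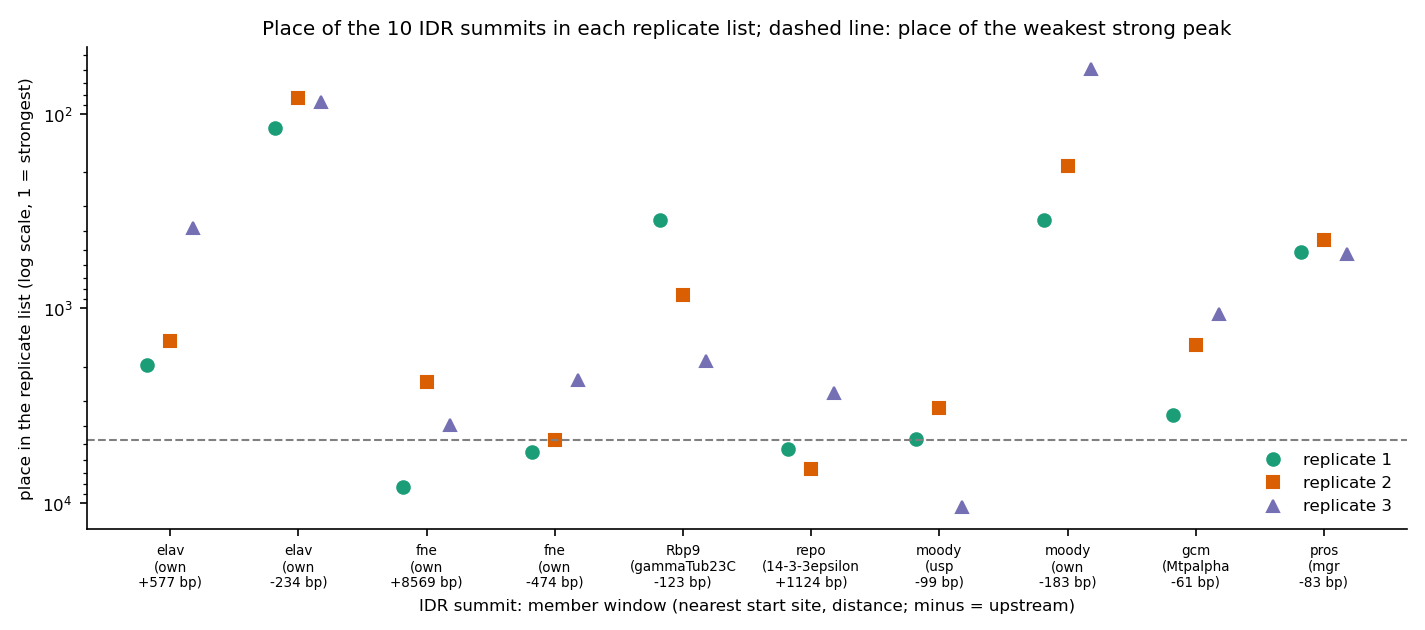
Place of each of the 10 IDR summits in the lists of replicates 1, 2 and 3 (log axis, 1 at the top), labelled with the gene window and the nearest start site with its distance in bp. The dashed line is place 4736. The summit upstream of elav is highest in replicates 1 and 2 and that upstream of moody in replicate 3, and 4 of the 10 fall below the line in at least 1 replicate.

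The helix-loop-helix genes ase and dpn had the fewest summits, in short windows of 12.4 and 13.4 kb. Per 10 kb of window the pooled list had 2.41 at ase and 2.25 at dpn, but fewer, 1.35, at pros. At ase (FBgn0000137, X 460747 to 463176, plus strand) the pooled list had 3 summits in the window and none inside the gene. The strongest had a signal of 66.1 in place 15289 and lay 842 bp beyond ase. All 3 lay in introns of another gene, CG32816. Replicate 2 had no summit in the window, and replicates 1 and 3 had 4 and 3, none strong. The nearest IDR summit was 13499 bp away. At dpn (FBgn0010109, 2R 8228971 to 8232330, minus strand) the pooled list had 3 summits, the strongest of signal 70.9 in place 13942, 2915 bp upstream of the TSS. The TSS nearest to this summit was that of the septin gene pnut, 2026 bp away. Inside dpn lay a pooled summit of 61.1 in place 17087, 661 bp downstream of its TSS and 81 bp upstream of the non-coding gene sisRNA:CR46360. No replicate peak covered that position. Replicate 1 had a strong summit of signal 97.1 in place 2319, but it stood 46 bp from the TSS of pnut. The nearest IDR summit, of signal 230, was 5074 bp from dpn, just outside the window, and the farthest inside any window was the one at gammaTub23C at 4334 bp.

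Over all 19 TSSs, 3 had an IDR summit within 500 bp and 6 a pooled one. With the pooled list, 5 of the 9 genes had a summit at an own TSS, against 48.8% of all protein-coding genes. With strong replicate peaks, elav and moody had one in each replicate and fne in replicate 3. This gave 2 genes in replicate 1 against 21.8% of all protein-coding genes, 2 in replicate 2 against 23.9%, and 3 in replicate 3 against 20.8%. In 5 of the 9 windows, those of elav, moody, Rbp9, gcm and pros, an IDR summit lay in a strong peak of all 3 replicates, against 33.4% of all protein-coding genes. Of the 10 IDR summits, 6 lay in a strong peak of all 3 replicates, 2 in those of 2 and 2 in that of 1. Over the whole IDR list the share in all 3 was 49.5%. Because the IDR peaks are the strongest pooled peaks, made from the same replicates, a high place in the replicates is partly built in.

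**Figure D4:**
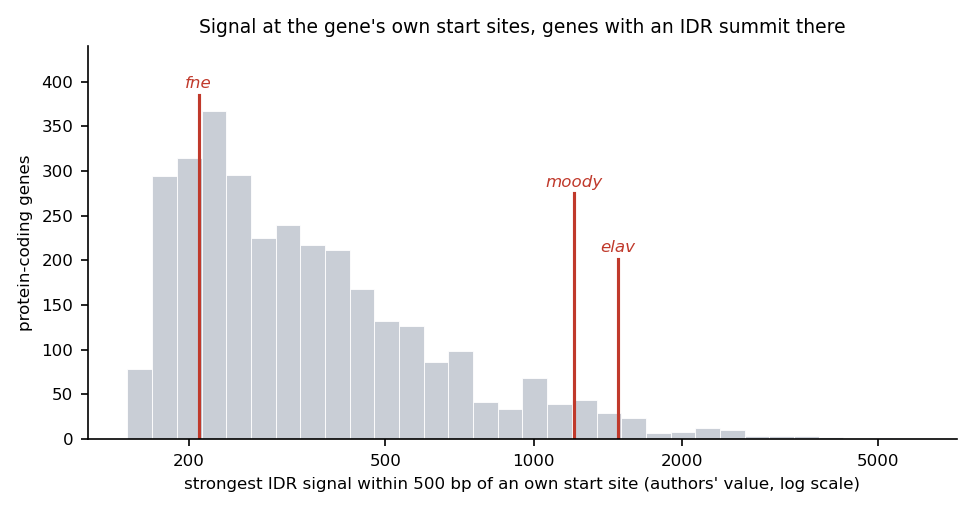
Distribution of the strongest IDR signal within 500 bp of an own start site over the 3185 protein-coding genes that have one (log axis, authors' value without unit), with elav, moody and fne in red. The values of elav (1483) and moody (1207) lie far above the upper quartile of 468, and that of fne (209) lies below the lower quartile of 219.

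The windows differ in length, which gives the longer genes more room for a summit. Among protein-coding genes, 46.3% of those with a window below 15 kb had an IDR summit in it, 60.8% from 15 to 20 kb, 63.6% from 20 to 30 kb, 64.9% from 30 to 50 kb and 65.4% above that. In the shortest class, which holds repo, gcm, ase and dpn, 2 of the 4 had one. The 5 longer members all had one. The share with an IDR summit inside the gene also rose, from 4.61% in the shortest class. It was 33.5% in the class of elav, 20 to 30 kb, 43.7% in that of fne, 30 to 50 kb, and 52.6% above that. The share with one within 500 bp of an own TSS was 19.7% in the shortest class and 30.4% to 34.4% in the longer ones. Per 10 kb of window there were 0.405 IDR summits at the 9 genes and 0.552 at all protein-coding genes. The density was 0.112 at pros, the longest, and 1.26 at moody. Pooled summits had 3.20 per 10 kb at the 9 genes and 2.84 over all. They numbered 79, of which 31 lay in introns, 20 at promoters (within 500 bp of a TSS of any gene), 10 in 3′ UTRs and 9 in coding exons. Of the 79, 13 had a deposited −log10 q of at least 2, and 10 of these were the IDR summits. The replicate lists had 60, 63 and 82 summits in the windows, with 9, 21 and 20 at that level. The shares of these classes and of that level over the whole pooled and replicate lists are not given here, so these counts have no background.

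The 10 IDR summits spanned a wide range of base composition. Their mean GC content was 38.9%, from 25.9% at fne to 57.7% at moody, against 34.7% over all IDR summits. At the summits of the covering peaks the mean was 37.8%, 38.6% and 38.9% in replicates 1, 2 and 3, with an SD of 0.538 between replicates. The downstream elav summit was richer in GC than 92.9% of all IDR summits, the one beyond repo than 95.3% and the moody summit than 99.5%. Of all IDR summits, 3863 of 4736 were poorer in GC than the mean of their surroundings 500 bp away. Of the 10, 7 were, and the exceptions were the downstream elav summit, the moody summit and the one in 14-3-3epsilon. Within 100 bp of the summit, GAGAG on either strand was found at 5 of the 10, both at elav, at moody, beyond repo and beyond pros. It was found at 19.5% of all IDR summits and at 26.0% of positions 500 bp away. The E-box CANNTG, the general form bound by helix-loop-helix proteins, was found at 6 of the 10, at 58.2% of all IDR summits and at 65.1% of positions 500 bp away. A run of 8 A or 8 T, AAAAAAAA on either strand, was found at 2, against 16.3% of all IDR summits and 10.9% of positions 500 bp away. No match was found for TATCGATA, the DREF site at 4.18% of all IDR summits, for CAGGTAG, a Zelda site at 0.697%, or for ATGCGGG, a Gcm site at 0.528%. At positions 500 bp away these 3 were found at 0.454%, 1.27% and 1.47%. Matches were sought on both strands, overlaps included, and a match describes the letters and is not a bound site.

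**Figure D5:**
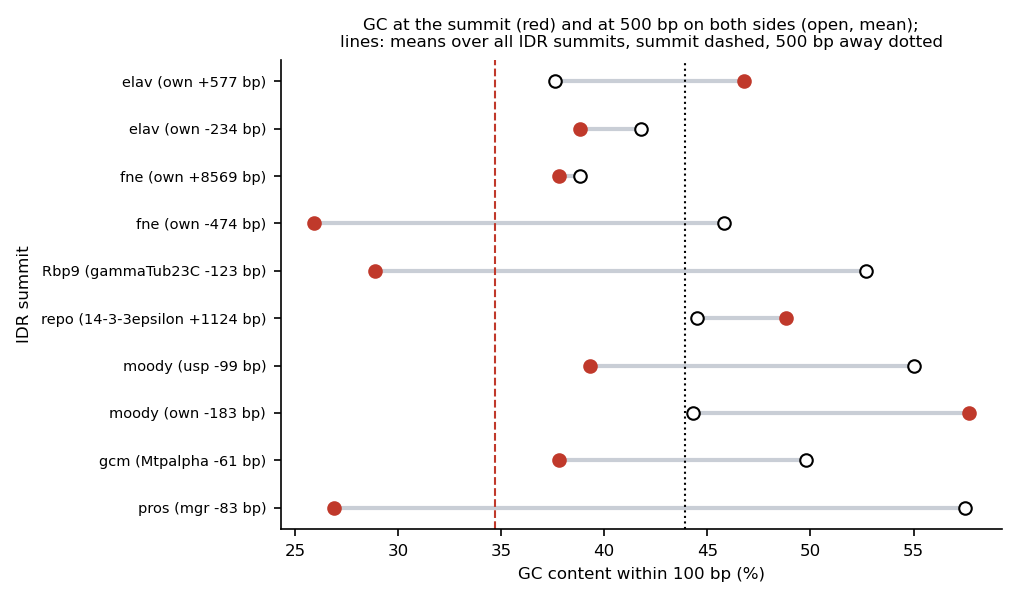
GC content within 100 bp of each of the 10 IDR summits (red) and of positions 500 bp away (open circles, mean of both sides), in percent. The dashed and dotted lines are the means over all 4736 IDR summits, 34.7% at the summit and 43.9% away from it. The red point lies to the right of the open one at 3 of the 10 summits, and moody is farthest right.

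A wider list of 89 neural and glial genes was counted the same way. Of them, 11 (12.4%) had an IDR summit within 500 bp of an own TSS, and strong peaks of the replicates gave 14.6% ± 1.91 (SD, n = 3). Over all protein-coding genes the share in the IDR list was 22.8%, as above. By group, it was 4 of 20 proneural and precursor genes, 2 of 10 genes of the temporal series, 2 of 19 glial genes, 3 of 22 genes of neuronal function and 0 of 18 neuronal transcription factor genes. The last group also counts Adar, which encodes an RNA-editing enzyme and not a transcription factor. Among the 11 genes, the strongest summit was at numb, which encodes an inhibitor of Notch in asymmetric division, 245 bp upstream of a TSS, its signal being 1004. It held places 144, 258 and 343 in replicates 1, 2 and 3 and was below elav and moody in signal. The synaptic adhesion gene Nrx-1 followed with 548, 128 bp downstream of a TSS, in places 918, 1019 and 395. The transcription factor gene lola had 463. The other 7 of the strongest 10 ran from 286 to 189, in the order fru, Imp, Gli, brat, chinmo, baz and htl. Of these 7, Gli alone, a gene of the glial septate junctions, had a strong peak in all 3 replicates, with places 2810, 3337 and 4000. Kept only where both other replicates had a strong peak, the 11 genes became 4 without replicate 2 and 6 without replicate 3. With 5 kb on each side, 42 of the 89 (47.2%) had an IDR summit, against the 50.4% of all protein-coding genes. In 26 of the 89 (29.2%) such a summit lay in a strong peak of all 3 replicates, against the 33.4% over all. The order was the opposite for the other counts. An IDR summit lay inside the gene in 23 of the 89 (25.8%), against the 11.6% over all, and a pooled summit within 500 bp of an own TSS in 50 (56.2%), against the 48.8%. Gene length was not matched in these shares.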

How the data were processed

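Per the labels, ChIP-seq with a GFP antibody was run on 3 biological replicates of Dek-GFP embryos, with chromatin sonicated to between 200 and 800 bp. The authors deposited narrowPeak lists on dm6, namely 1 per replicate, 1 from the pooled alignments and 1 after IDR. Per the deposited description files, each replicate and the pooled list also used 1 further file that they do not identify. The score of a peak is the authors' deposited signal value, without a stated unit. The deposited −log10 q was used to describe and filter peaks, and its lowest value was 3.25 for IDR peaks, 0.334 for pooled peaks and 0.186, 0.406 and 0.407 for those of replicates 1, 2 and 3. Which aligner, peak caller and IDR threshold were used is not given in the sources used here. Read counts are absent from the lists, and depth is unknown.

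Ensembl release 115 supplied the gene models and RefSeq the genome sequence (Release 6), and both use dm6 coordinates. The 5889 annotated transposon copies were left out as genes and TSSs. A summit was classed as promoter when within 500 bp of any TSS, and otherwise by the exon, UTR or intron it lay in, or as intergenic. A summit was matched to the replicate peak that covers it. GC content and motifs were counted within 100 bp of the summit. The assignment of summits was tested on simulated positions. Python 3.11.15, numpy 2.4.6, pandas 2.3.3 and matplotlib 3.10.9 were used.

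The members, the wider list of 90 symbols (1, isl, found no match) and the rules were chosen with earlier results of these data known. No test was run, because there is 1 group and no control was analysed here. All members and all their IDR summits are named, as are the nearest genes and the 10 strongest of the wider list. Alternatives changed the flank, the promoter window, the list, the definition of a shared peak, the GC window and the replicates.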

Additional observations from a re-analysis of the deposited data

How the results depend on the processing

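No paired analysis was possible because all samples belong to 1 group. The members with an IDR summit in the window numbered 7, and 2 and 3 with flanks of 0 and 2 kb. The summits in the windows numbered 10, and 3, 5 and 19 with flanks of 0, 2 and 10 kb, 6 with the strongest 2368 IDR peaks and 79 with the pooled list. The members with a summit in a strong peak of all 3 replicates numbered 5, and 1 and 2 with flanks of 0 and 2 kb. The members with a summit at an own TSS numbered 3, and 1 (moody) with a window of 200 bp and 5 with the pooled list. The wider list had 11 such genes, 5 and 18 with windows of 200 and 1000 bp, and 5 with the strongest 2368 peaks. The mean GC content was 38.9%, 36.6% and 41.8% within 50 and 250 bp, and 39.5% with the strongest 2368 peaks. Leaving out a replicate kept IDR summits in strong peaks of both others, a stricter rule than that for the whole list. It gave 5 to 6 members with a summit in the window, 2 at an own TSS each time, and 6 to 7 summits (6 without replicate 2). The mean GC content became 39.2% to 39.5%. The wider list had 4 to 8 genes, with 4 without replicate 2 and 6 without replicate 3. For the 5 members with a summit in a strong peak of all 3 replicates, this rule was looser. That count could only stay or rise, and it became the same 5 to 6 members, so it is no separate result. Over all protein-coding genes, the share with an IDR summit was 11.6% with a flank of 0 kb. The share with a pooled summit at an own TSS was 48.8%. For the other changed settings no such share is given here, so those changes cannot be called particular to these genes. Since depth is unknown, a TSS without a summit shows only that none was listed.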

Other observations

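Several genes of the wider list held many IDR summits in the gene and 5 kb on each side, and were picked after their values were seen. They are brat, a translational repressor that ends neuroblast self-renewal, with 8, lola with 6, pnt, which encodes an ETS factor, with 5, and the syntaxin gene Syx1A with 5. Longer windows have more room for summits, with 0.552 IDR summits per 10 kb over all protein-coding genes. Window length was not taken into account in the counts of these genes. Of these, brat had 3 summits within 500 bp of an own TSS, the strongest with a signal of 247 in place 2661, and no peak of replicate 1 covered it. At an own TSS lola had 1, and pnt and Syx1A had none. Whether their other summits in the window lie at neighbouring genes was not examined. The glial genes of the wider list had an IDR summit in the window in 14 of 19 cases, against 50.4% of all protein-coding genes, and within 500 bp of an own TSS in 2, against 22.8%. The group of neuronal transcription factor genes, Adar included, had one in the window in 4 of 18 cases, against the same 50.4%. That share ran from 46.3% for windows below 15 kb to 65.4% for those of 50 kb and more, and window length was not matched here. Both groups were picked after their values were seen, and no test was run on these counts.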
